A study of Mus musculus with 6 samples.

Results

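The genes described here are 10 imprinted genes of a growth network: H19, Igf2, Igf2r, Airn, Meg3, Dlk1, Peg3, Plagl1, Grb10 and Ndn. They were measured on arrays of LKS+ cells, the marrow cells without mature-lineage markers and with high c-Kit and surface Sca-1, which hold the blood stem cells and multipotent progenitors. A gene was represented by the brightest probe set, by mean over the 6 arrays, among those annotated to that gene symbol alone. By this rule 9 of the 10 genes had a value, out of 18193 genes on the array, and they had 41 of the 45037 probe sets tested. H19 had no value, because its probe set is annotated to Mir675, a microRNA gene that lies inside H19, as well as to H19. The choice of genes was made with earlier results of these arrays in view, among them the difference in Airn. The values of Airn are therefore a description and support no further statement.

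An imprinted gene is expressed mainly from the allele of 1 parent, fixed by DNA methylation that is set in the germ line. Many imprinted genes act on fetal growth. Paternally expressed genes such as Igf2, Dlk1 and Peg3 tend to promote it, and maternally expressed genes such as H19, Igf2r and Grb10 tend to restrain it. Plagl1 is a zinc finger transcription factor that regulates other members of the network. In blood stem cells, imprinted genes of this network are known for high expression in quiescent long-term stem cells and for lower expression in the progenitors that follow them.

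Of the 6 arrays, 3 hold RNA of wild type (WT) LKS+ cells and 3 of Apcmin LKS+ cells. The Min allele of Apc ends the Apc protein early, and Apc is a scaffold on which beta-catenin is marked for degradation. By its title the series concerns blood stem cell function in these mice, with MPD/MDS (a myeloproliferative or myelodysplastic disorder) as the disease they model. The comparison asks which transcripts differ between the 2 genotypes. The labels state a yield of 20000 or more sorted cells per mouse and a purity above 90%, and they name no strain, age or sex. No label says which animal an array came from. The arrays were taken as separate mice, and p-values measure only the spread between them. In sorted cells, fewer cells of a type and less RNA per cell cannot be told apart.

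The levels are log2 of the intensities that the authors deposited, and a difference is the Apcmin mean less the WT mean of these log2 levels. Median log2 intensities of the arrays lay between 4.12 and 4.18. Genes of the sorted population were well measured, with 7 of 7 LKS+ markers at a mean of at least 6, of 8 listed. Kit, the gene for c-Kit, had a WT level of 9.79 ± 0.18 (SD, n = 3) and an Apcmin level of 9.87 ± 0.18. Endothelial and stromal cells, in which several imprinted genes are also expressed, were checked through their markers. Of 8 endothelial markers 3 had a mean of at least 6 and 5 a mean under 4. The 3 were Emcn, Pecam1 and Robo4, at 7.21, 7.01 and 6.37 in WT and at 7.31, 6.71 and 6.27 in Apcmin. Cdh5, which defines endothelium, was at 2.25 in WT and 2.16 in Apcmin. Of 11 stromal markers 1, Pdgfrb, had a mean of at least 6 and 8 a mean under 4, with Col1a1 at 3.02 and 2.62. In neither list did a member separate the genotypes. Summed endothelial levels ran from log2 8.56 to 8.81 in WT and from 8.51 to 8.68 in Apcmin, and summed stromal levels from 8.05 to 8.49 and from 8.14 to 8.31. Markers of mature blood cells had a median difference of -0.34 over 11 genes, 6 of them under 4, and of -0.07 over the 5 with a mean of at least 6. Nkg7, a cytotoxic granule gene named after its values were seen, was the 1 of the 11 without overlap, at 11.04 in WT and 10.70 in Apcmin. The rest of the 5 were S100a8, S100a9, Camp and Ngp. They were at 11.38, 12.03, 9.66 and 8.99 in WT and at 11.34, 11.96, 9.52 and 9.04 in Apcmin. The summed level of the 11 ran from log2 13.10 to 13.55 in WT and from 13.17 to 13.26 in Apcmin. That of the 7 LKS+ markers was lower, from 12.46 to 12.71 and from 12.56 to 12.66. Signals of different probe sets are not comparable, so these sums give no shares of cells. The part of mature blood cells in the values was not tested.

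No gene of the network passed the test between genotypes. In limma, 0 of the 41 probe sets had an adjusted p under 0.05, as had 0% of all probe sets, and the lowest adjusted p among them was 0.954. At an unadjusted p under 0.05 there was 1 of the 41, an Airn probe set, where 3.81% of all probe sets had such a p. Of the 9 genes, 4 had a higher mean in Apcmin (Airn, Grb10, Ndn and Peg3), 4 a lower mean (Igf2, Meg3, Dlk1 and Plagl1), and Igf2r had the same mean of 6.50 in both. Over all genes 43% were higher in Apcmin, with a median difference of -0.04. The 3 Apcmin values lay wholly on 1 side of the 3 WT values in 1 of the 9 genes, Airn, as they did in 7.73% of all genes (2.97% with Apcmin higher). Among genes with a mean of at least 6 this share was 7.63%, and 4.16% with Apcmin higher. The median 95% confidence half-width of a difference, unadjusted, was 0.41 among probe sets with a mean of at least 6. With 3 arrays a group, intervals of smaller differences thus mostly held the value of no difference. The adjusted test asks for more than this interval, and Airn, at 0.83, did not pass it.

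**Figure D1:**
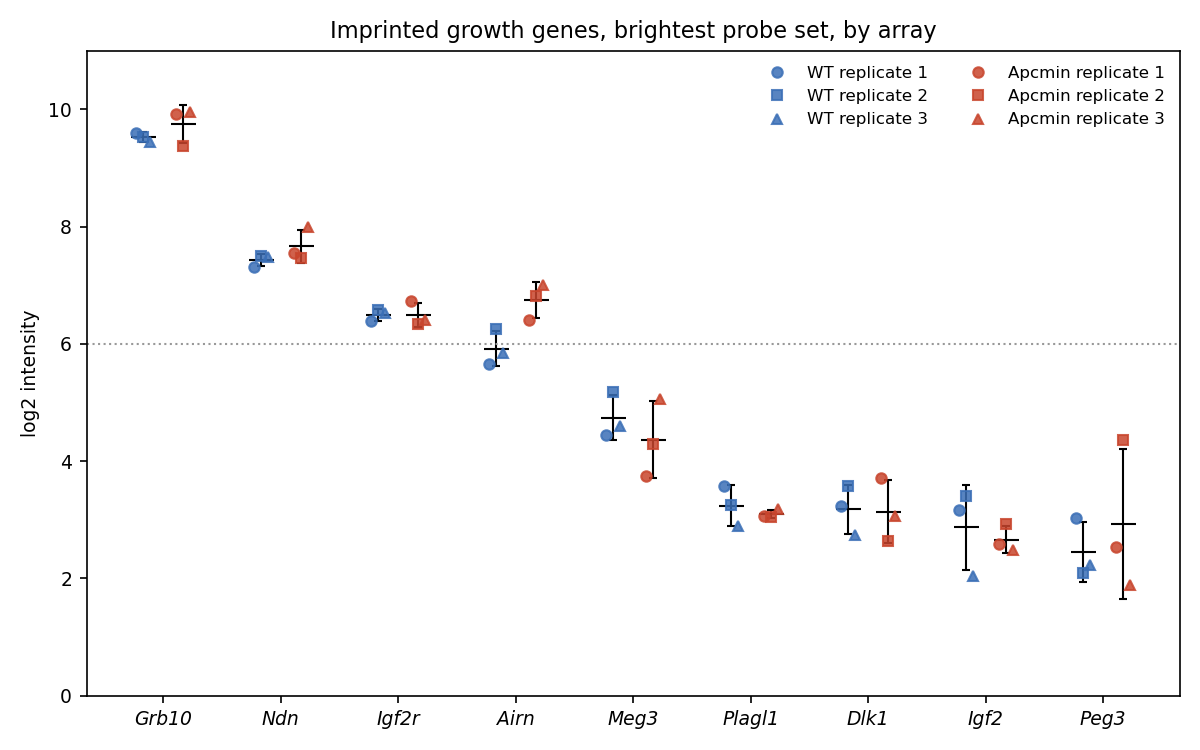
Log2 intensity of the brightest probe set of each of the 9 genes on each array. Blue points are the 3 WT and red points the 3 Apcmin arrays, with the symbol giving the replicate number, black marks giving mean ± SD and the dotted line a log2 intensity of 6. Signals of different probe sets are not comparable between genes, and only in Airn do all red points lie above all blue points.

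Signal strength divided the genes. Grb10, Ndn, Igf2r and Airn averaged 6 or more in log2 intensity over the 6 arrays, Meg3 was at 4.55, and Plagl1, Dlk1, Igf2 and Peg3 were under 4. Probe sets differ in how well they bind, so these signals do not order the genes by expression. They do bear on precision: the median within-group SD was 0.19 among probe sets at 6 or above and 0.28 among those under 4. It was higher between these ranges, at 0.42 for means from 4 to 5, where Meg3 lay, and 0.37 from 5 to 6. The deposited values carry no detection call, so a value under 4 was not taken as proof of expression. Among genes at large the median difference was 0.02 at a mean of 6 or more and -0.14 at a mean under 4.

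**Figure D2:**
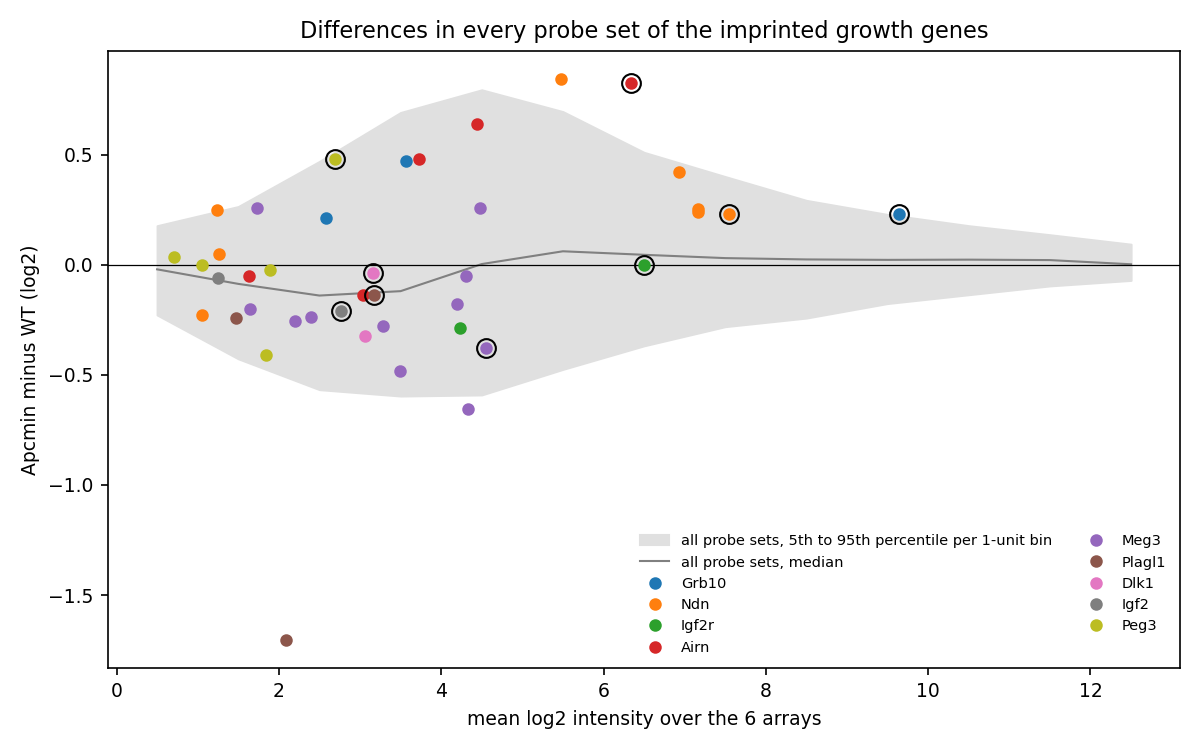
Difference Apcmin minus WT (log2) against mean log2 intensity for the 41 probe sets, coloured by gene, with a black ring around the probe set that represents a gene. The grey band holds the 5th to 95th percentile of all probe sets per unit of level and the grey line their median. The ringed Airn probe set lies above the band at 0.83, as does an Ndn probe set at 0.84, and a dim Plagl1 probe set lies far below it at -1.70.

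Airn and Igf2r are an imprinted antisense pair on chromosome 17. Igf2r encodes a receptor that takes up Igf2 and delivers it to lysosomes for degradation, and it is expressed from the maternal allele. Airn is a long noncoding RNA that starts inside Igf2r, runs antisense to it on the paternal allele, and silences Igf2r there. The windows around their starts, from 250 bases before to 50 after each start, are shown for this arrangement, with CpG dinucleotides, the sites that carry methylation, in capitals (RefSeq, GRCm38.p6, 5′ to 3′ on the strand of each gene).
Airn, chr17:12741061-12741360, plus strand: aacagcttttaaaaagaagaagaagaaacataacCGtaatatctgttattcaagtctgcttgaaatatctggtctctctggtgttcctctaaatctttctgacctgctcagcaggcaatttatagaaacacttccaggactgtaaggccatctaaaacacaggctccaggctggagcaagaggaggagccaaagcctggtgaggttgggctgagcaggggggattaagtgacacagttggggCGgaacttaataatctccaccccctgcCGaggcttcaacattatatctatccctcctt
Igf2r, chr17:12769657-12769956, minus strand: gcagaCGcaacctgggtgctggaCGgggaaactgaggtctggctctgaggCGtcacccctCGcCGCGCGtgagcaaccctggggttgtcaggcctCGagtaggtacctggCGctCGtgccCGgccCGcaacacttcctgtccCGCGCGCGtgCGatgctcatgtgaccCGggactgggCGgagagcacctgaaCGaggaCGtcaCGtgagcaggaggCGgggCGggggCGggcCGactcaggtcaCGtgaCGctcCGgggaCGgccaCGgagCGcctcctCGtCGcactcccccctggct
The starts lie 28395 bases apart on opposite strands. The Igf2r window held 34 CpGs, more than 92.3% of the 32851 windows in the table, and the Airn window held 3, more than 23.3% of them.

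Airn was at 5.66, 6.25 and 5.84 on WT replicates 1 to 3 and at 6.41, 6.81 and 7.01 on the Apcmin arrays. All 3 Apcmin values lay above all WT values, though WT replicate 2 and Apcmin replicate 1 were close to each other. The means were 5.92 ± 0.30 among WT arrays (SD, n = 3) and 6.75 ± 0.30 among Apcmin arrays, a 1.77-fold difference. On the log2 scale it was 0.83 with a standard error of 0.23 and a 95% confidence interval from 0.28 to 1.37, and it did not pass over all probe sets (limma, adjusted p = 0.954). With each array left out in turn the difference stayed between 0.69 and 0.99.

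The Airn probe sets did not all behave alike. The next brightest, at a mean of 4.12 in WT and 4.76 in Apcmin, differed by 0.64, but its Apcmin replicate 1 value of 3.79 lay below all WT values, the lowest of which was 3.83. The third differed by 0.48, at 3.24, 3.56 and 3.67 in WT and at 3.70, 4.53 and 3.67 in Apcmin. Its 1 high value was on Apcmin replicate 2, and replicate 3 of both genotypes had the same value. The remaining pair were dim and differed by -0.14 and -0.05. Thus 2 of the 4 other probe sets had the sign of the brightest, and none of the 4 separated the genotypes. A further probe set is annotated to both Airn and Igf2r and was left out by the rule. It was at 3.34 ± 0.49 in WT and 2.94 ± 0.14 in Apcmin.

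Igf2r, by its brightest probe set, had the same mean in both genotypes. This probe set was at 6.39, 6.57 and 6.53 on the WT arrays and at 6.74, 6.35 and 6.41 on the Apcmin arrays. The groups overlapped fully, with means of 6.50 ± 0.10 in WT and 6.50 ± 0.21 in Apcmin (n = 3), and the 95% confidence interval of the difference ran from -0.39 to 0.39. The other Igf2r probe set, at 4.37 ± 0.51 in WT and 4.08 ± 0.14 in Apcmin, differed by -0.29 (limma, adjusted p = 0.954). Within each array, Airn minus Igf2r was -0.72, -0.32 and -0.69 in WT and -0.32, 0.47 and 0.61 in Apcmin. WT replicate 2 and Apcmin replicate 1 met at the same value to 2 decimals, so the groups overlapped in this measure. Its mean changed by 0.83, and by 0.50 when all probe sets of each gene were averaged. No test was made of this change, because Airn was chosen with its difference known.

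**Figure D3:**
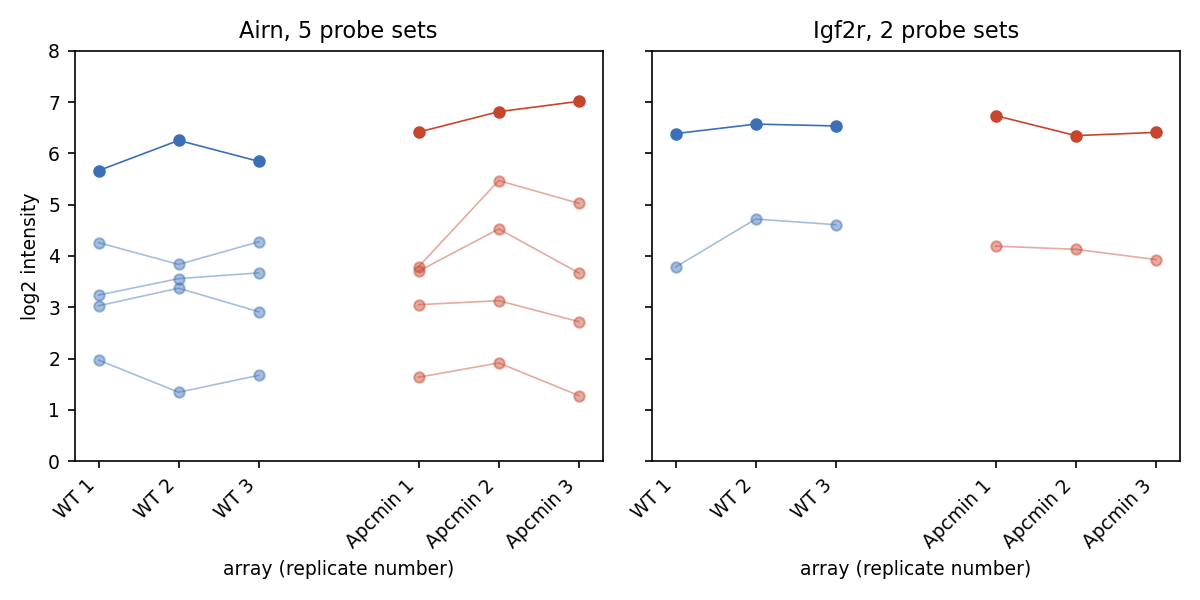
Log2 intensity on each array (horizontal axis) of the 5 Airn and the 2 Igf2r probe sets annotated to that gene alone, with WT in blue and Apcmin in red. Each line joins the values of 1 probe set within a genotype and marks no order, and the brightest probe set is drawn in full colour. The brightest Airn probe set is higher on the Apcmin arrays, and the brightest Igf2r probe set is at the same level in both genotypes.

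Grb10 encodes an adaptor that binds the insulin and IGF1 receptors and restrains their signalling. It is expressed from the maternal allele in most tissues and from the paternal allele in neurons, from separate starts. Both RefSeq start windows are shown for the contrast between them, again with CpGs in capitals. Neither window is labelled with an allele or a tissue.
Grb10, upstream start, chr11:12037371-12037670, minus strand: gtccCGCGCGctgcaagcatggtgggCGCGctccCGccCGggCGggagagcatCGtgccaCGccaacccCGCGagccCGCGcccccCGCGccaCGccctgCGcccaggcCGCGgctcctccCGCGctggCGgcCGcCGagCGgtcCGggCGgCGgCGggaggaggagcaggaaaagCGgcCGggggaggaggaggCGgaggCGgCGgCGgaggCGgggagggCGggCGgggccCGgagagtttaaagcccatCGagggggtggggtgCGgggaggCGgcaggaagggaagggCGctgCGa
Grb10, downstream start, chr11:12027922-12028221, minus strand: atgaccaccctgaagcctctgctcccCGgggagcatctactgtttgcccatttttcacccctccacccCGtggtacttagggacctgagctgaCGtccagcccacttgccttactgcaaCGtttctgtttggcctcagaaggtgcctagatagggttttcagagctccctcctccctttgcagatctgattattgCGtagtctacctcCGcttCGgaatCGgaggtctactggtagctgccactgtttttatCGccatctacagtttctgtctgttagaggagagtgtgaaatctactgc
The upstream window held 45 CpGs, more than 98.1% of all windows, and the downstream window held 9. The array annotation does not tie the Grb10 probe sets to either start, so the values below are for the gene.

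Grb10 was at 9.60, 9.54 and 9.44 on the WT arrays and at 9.92, 9.38 and 9.96 on the Apcmin arrays. Apcmin replicates 1 and 3 were above all WT arrays, while Apcmin replicate 2 was the lowest of the 6. The difference was 0.23, from 9.52 ± 0.08 to 9.75 ± 0.32 (SD, n = 3), with an interval from -0.23 to 0.69 (limma, adjusted p = 0.954). The Apcmin arrays were more spread than the WT arrays. The difference was 0.42 without Apcmin replicate 2, and leaving out Apcmin replicate 1 or 3 instead gave 0.14 or 0.13. The other Grb10 probe sets were dim and differed by 0.47 and 0.21, so all 3 had the same sign.

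Ndn encodes necdin, a MAGE family protein that binds p53 and E2F1, is expressed from the paternal allele, and has been linked to quiescence of blood stem cells. Its start window is shown with CpGs in capitals.
Ndn, chr7:62348027-62348326, plus strand: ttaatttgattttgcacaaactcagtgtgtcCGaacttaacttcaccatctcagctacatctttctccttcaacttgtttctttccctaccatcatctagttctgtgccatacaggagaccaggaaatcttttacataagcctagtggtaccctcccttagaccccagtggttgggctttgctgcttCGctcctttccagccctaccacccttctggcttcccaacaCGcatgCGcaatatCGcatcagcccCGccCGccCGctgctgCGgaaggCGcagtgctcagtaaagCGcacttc
This window held 11 CpGs. The TGCCGC motif, which the imprint-protecting factor Zfp57 binds when methylated, was searched on both strands of all windows. It was present in 4 of the 14 windows of the network (1 each of Igf2, Meg3, Plagl1 and, at its upstream start, Grb10) and in 11.6% of all windows, and it was not among the letters of the Ndn, Airn or Igf2r windows.

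Ndn was at 7.32, 7.49 and 7.49 on the WT arrays and at 7.55, 7.46 and 7.99 on the Apcmin arrays. Apcmin replicate 3 stood above the rest, and Apcmin replicate 2 lay among the WT values. The difference was 0.23, from 7.43 ± 0.10 to 7.67 ± 0.28 (SD, n = 3), with an interval from -0.20 to 0.67 (limma, adjusted p = 0.954). Without Apcmin replicate 3 it was 0.07. Ndn had 8 probe sets, of which 7 were higher in Apcmin and 5 had a mean of at least 4. On all 5 of these the highest value was that of Apcmin replicate 3, which was the highest array for 14.2% of all probe sets with a mean of at least 4. The largest difference was 0.84, in the dimmest of the 5, at 5.05 ± 0.47 in WT and 5.89 ± 0.69 in Apcmin (limma, adjusted p = 0.954). Without Apcmin replicate 3 the differences of the 5 probe sets ran from -0.08 to 0.48.

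Grb10 and some Ndn probe sets shared an order of arrays. In Grb10 and in 3 of those 5 Ndn probe sets, though not in the brightest, the arrays ranked, from high to low, Apcmin replicate 3, Apcmin replicate 1, WT replicates 1, 2 and 3, and Apcmin replicate 2. The brightest Ndn probe set had WT replicate 1 lowest. Apcmin replicate 3 was the highest and Apcmin replicate 2 the lowest array in 2.66% of all genes, Grb10 among them and Ndn by its brightest probe set not. Summed erythroid markers ranked the arrays in nearly the order of Grb10, which was noticed after the values were seen. Their summed log2 level over the 6 measured of 8 markers was 11.40, 11.27 and 10.33 on the WT arrays and 11.49, 10.40 and 11.61 on the Apcmin arrays. It differs from the order of Grb10 only in its lowest pair, WT replicate 3 and Apcmin replicate 2. The brightest marker, Car1, weighs most in this sum. When the 6 markers count equally, as mean log2 deviations, the values were 0.54, 0.31 and -0.38 in WT and 0.03, -0.61 and 0.12 in Apcmin, with WT replicates 1 and 2 highest. Car1, an early erythroid carbonic anhydrase, was at 10.94, 11.03 and 10.08 in WT and at 11.20, 10.19 and 11.34 in Apcmin, and Klf1, the erythroid transcription factor, at 9.25, 8.01 and 7.16 and at 8.78, 7.06 and 8.67. Klf1 and Epor, the erythropoietin receptor, were highest on WT replicate 1. Late markers did not share this order, and the 3 measured had means under 4. Slc4a1, the red cell anion exchanger, was at 4.46 ± 0.36 in WT and 2.98 ± 0.36 in Apcmin (n = 3), with all Apcmin values below all WT values (limma, adjusted p = 0.954). The globin gene Hba-a1 was near the bottom of the range, at 2.32 ± 0.27 and 1.87 ± 0.10, again without overlap, and Alas2 was at 2.15 and 1.99. Thus 2 of the 6 markers had all Apcmin values below all WT values, against 4.76% of all genes. Both had means under 4, where the median difference over all genes was -0.14. Markers of long-term stem cells had summed levels of 11.80, 11.94 and 11.97 in WT and of 12.04, 11.91 and 11.97 in Apcmin. Apcmin replicates 1 and 3 were highest in this sum and WT replicate 1 lowest, as in the brightest Ndn probe set. When the 11 markers count equally, the mean log2 deviations were -0.05, 0.053 and 0.075 in WT and -0.031, -0.056 and 0.009 in Apcmin. WT replicates 3 and 2 were then highest and Apcmin replicate 2 lowest, so the likeness to Ndn did not hold. The part of erythroid progenitors or of long-term stem cells in the Grb10 and Ndn values was not tested.

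**Figure D4:**
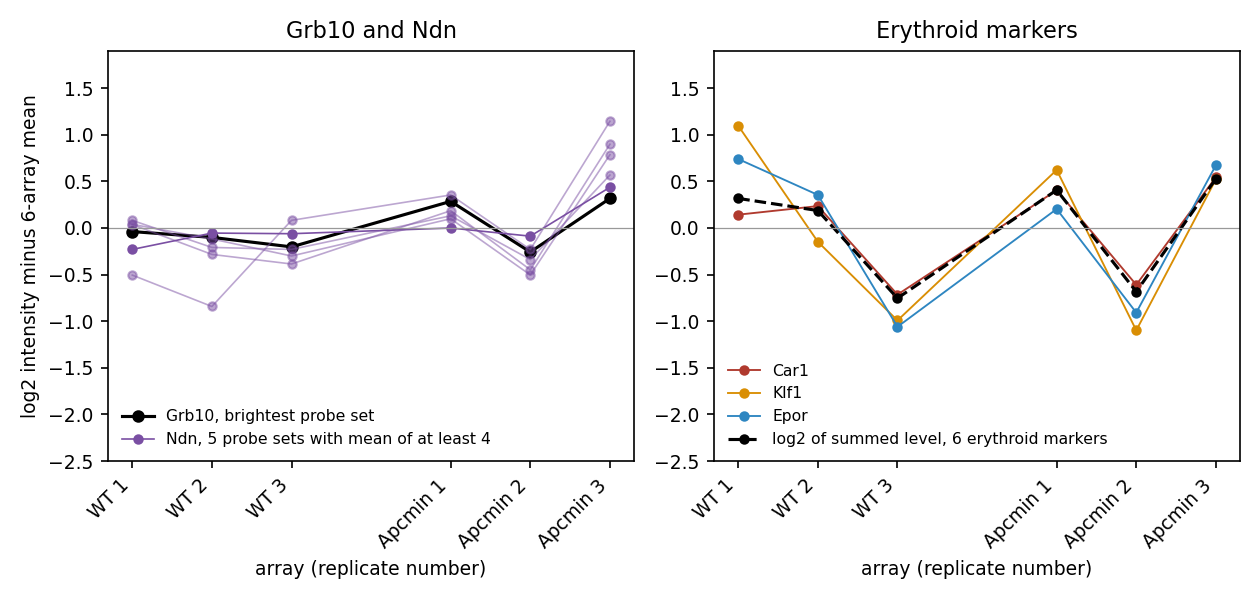
Log2 intensity minus the 6-array mean on each array (horizontal axis). The left panel has Grb10 in black and the 5 Ndn probe sets with a mean of at least 4 in purple, and the right panel has Car1, Klf1, Epor and the summed level of the 6 erythroid markers. Lines join 1 probe set's values and mark no order. In both panels Apcmin replicates 1 and 3 lie above Apcmin replicate 2.

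Meg3 and Dlk1 are neighbours on chromosome 12 with opposite imprints. Meg3 is a maternally expressed long noncoding RNA, and Dlk1 a paternally expressed transmembrane protein related to the Notch ligands. Meg3 was at 4.45, 5.18 and 4.60 on the WT arrays and at 3.75, 4.29 and 5.05 on the Apcmin arrays. Apcmin replicates 1 and 2 were below all WT arrays and Apcmin replicate 3 was above 2 of them. The difference was -0.38, from 4.74 ± 0.38 to 4.36 ± 0.66 (SD, n = 3), with an interval from -1.23 to 0.48 (limma, adjusted p = 0.954). Without Apcmin replicate 1 it was -0.07.

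Meg3 had 11 probe sets, the most in the network. The Apcmin mean was the lower one in 9 of them, and the median over the 11 was -0.24. Their differences ran from -0.65 to 0.26. The second brightest, at 4.35 ± 0.07 in WT and 4.60 ± 0.70 in Apcmin, was higher in Apcmin by 0.26, although its mean signal was close to that of the probe set chosen by the rule. A dim probe set, at 3.43 ± 0.13 and 3.15 ± 0.14, was the only one of the 11 in which all Apcmin values lay below all WT values, as they did in 4.78% of all probe sets (limma, adjusted p = 0.954). Rian, a noncoding RNA transcribed beyond Meg3 from the same maternal allele, was looked up after the Meg3 values were seen. It was at 4.13, 4.53 and 4.22 in WT and at 3.52, 3.50 and 4.87 in Apcmin, with Apcmin replicates 1 and 2 lowest and Apcmin replicate 3 highest. Mirg, a further noncoding RNA of that allele, did not share this order, at 2.47, 2.52 and 2.34 in WT and at 1.93, 2.66 and 2.28 in Apcmin.

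Dlk1 was dim. Its brightest probe set was at 3.23, 3.57 and 2.73 on the WT arrays and at 3.71, 2.64 and 3.07 on the Apcmin arrays, and the groups overlapped. The difference was -0.04, with an interval from -0.82 to 0.74 (limma, adjusted p = 0.994), and the other probe set, of almost the same brightness, differed by -0.32. The direction of the Dlk1 value turned without WT replicate 2 (0.16) or Apcmin replicate 2 (0.21). Meg3 minus Dlk1 within each array was 1.22, 1.60 and 1.87 in WT and 0.04, 1.66 and 1.98 in Apcmin. Apcmin replicate 1 stood far below the others, and without it the change of -0.34 between genotypes became 0.26.

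Igf2, the growth factor whose receptor Igf1r transmits its signal, gave little signal. Its brightest probe set was at 3.17, 3.40 and 2.05 in WT and at 2.58, 2.93 and 2.48 in Apcmin. The Apcmin values lay within the WT range. The difference was -0.21, with an interval from -1.07 to 0.64 (limma, adjusted p = 0.961), and the other probe set was at 1.28 in WT and 1.22 in Apcmin. The probe set annotated to Mir675 and H19 was at 2.25, 2.73 and 2.94 in WT and at 3.29, 4.05 and 2.39 in Apcmin, with overlap, and no value was given to H19 from it.

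Peg3, a paternally expressed zinc finger protein, and Plagl1 were dim as well, and each had 1 array apart from the rest. Peg3 was at 3.03, 2.09 and 2.23 in WT and at 2.54, 4.36 and 1.89 in Apcmin. Apcmin replicate 2 was high. The difference was 0.48 with that array and -0.24 without it, and 1 of the 4 other Peg3 probe sets had the same sign. Plagl1 was at 3.58, 3.25 and 2.89 in WT and at 3.07, 3.05 and 3.18 in Apcmin, a difference of -0.14. Another Plagl1 probe set was at 1.04, 2.59 and 5.18 in WT and at 2.02, 0.80 and 0.88 in Apcmin. Its difference of -1.70, the largest of the 41 in size, came with a WT SD of 2.09 and an interval from -4.04 to 0.64 (limma, adjusted p = 0.954). WT replicate 3 held the high value, and on the remaining Plagl1 probe set, at 1.60 ± 0.10 and 1.35 ± 0.16 (n = 3), that array was not apart.

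Agreement among probe sets thus varied by gene. All probe sets of Grb10 (3 of 3 higher), Plagl1 (3 of 3 lower), Igf2 and Dlk1 (2 of 2 lower each) had 1 sign, as had 7 of 8 for Ndn and 9 of 11 for Meg3. Airn was split at 3 higher and 2 lower, and Peg3 at 2 and 3. Probe sets of a gene share the arrays and the RNA, so their agreement repeats the arrays' spread and adds no replicate. Over the 41 probe sets, 17 were higher and 24 lower in Apcmin. The groups did not overlap in 2 of them, 1 in each direction, against 7.88% of all probe sets (3.1% with Apcmin higher).

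Other imprinted genes, a list of 64, had 54 with a value. Of these 21 had the higher mean in Apcmin and 33 the lower, and their median difference was -0.08, against -0.04 over all genes. A mean under 4 was found in 25 of the 54, a range where the median over all genes was -0.14. Over the 20 with a mean of at least 6 the median was -0.01, against 0.02 for all genes that bright. Without WT replicate 3 the median over the 54 was -0.14, against -0.06 over all genes. None passed (limma, lowest adjusted p = 0.954), and 1 had an unadjusted p under 0.05, where 3.11% of all genes did. In 3 of the 54 all Apcmin values lay below all WT values, and in 0 above, against 4.76% and 2.97% of all genes. Impact, a regulator of translation, was at 8.73 ± 0.14 among WT arrays (SD, n = 3) and 8.43 ± 0.17 among Apcmin arrays, and both further Impact probe sets were lower as well. Napb (5.90 ± 0.23 and 5.35 ± 0.09) and Snrpn (3.19 ± 0.28 and 2.77 ± 0.09) were the others, named after their values were seen. Cdkn1c, a maternally expressed cell cycle inhibitor of the same network, was at 4.14 ± 0.11 and 4.03 ± 0.23. Mest, which the network also holds, was at 7.25 ± 0.35 and 7.09 ± 0.35, and Gnas, the gene for a G protein alpha subunit, at 10.85 ± 0.11 and 10.89 ± 0.07. Dcn, Peg10 and Slc22a2, at 2.81, 2.61 and 2.23 in WT and 2.33, 2.65 and 2.03 in Apcmin, were dim, and Slc22a2 is a neighbour of Igf2r that Airn silences in placenta.

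The pathway on which Igf2, Igf2r and Grb10 act was split nearly evenly in direction with all arrays. Of 25 genes of IGF and insulin signalling 23 were measured, 11 of them higher in Apcmin and 12 lower. Their median difference was -0.002. With single arrays left out it ran from -0.09 to -0.01, against -0.06 to -0.02 over all genes. In those settings 8 to 11 genes were higher and 12 to 15 lower. None passed (limma, lowest adjusted p = 0.954). Igf1r, the receptor that carries the signal of Igf1 and Igf2, was at 9.65 ± 0.27 in WT and 9.67 ± 0.08 in Apcmin (n = 3), and Insr, the insulin receptor, at 8.29 ± 0.06 and 8.12 ± 0.16. Akt1, a kinase downstream of both, was the 1 gene of the 23 whose groups did not overlap, where 7.73% of all genes did not. It was at 8.55 ± 0.03 and 8.66 ± 0.01, and of 3 further Akt1 probe sets 1 was higher too. The ligand Igf1 was at 4.65 ± 0.69 and 3.93 ± 0.49, and its 3 other probe sets had the opposite sign. Igf2bp3, which binds Igf2 mRNA, was at 3.48 ± 0.19 and 3.98 ± 0.48.

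Genes that set or keep imprints were bright in these cells, with 20 of 25 measured genes at a mean of at least 6. In Apcmin 15 were higher and 10 lower, with a median difference of 0.12, and none passed (limma, lowest adjusted p = 0.954). The median of the 20 bright genes was 0.14, against 0.02 for all genes that bright. The median over the 25 genes fell to 0.04, 0.03 and 0.06 when WT replicate 1, WT replicate 2 or Apcmin replicate 1 was left out, and it was 0.18 when WT replicate 3 was. Dnmt1, the maintenance DNA methyltransferase, was at 11.55 ± 0.06 in WT and 11.56 ± 0.02 in Apcmin (n = 3). Trim28, the corepressor that Zfp57 recruits, was at 10.52 ± 0.10 and 10.66 ± 0.10, and Ctcf, which insulates Igf2 from its enhancers on the maternal allele, at 10.17 ± 0.21 and 10.24 ± 0.20. Zfp57 was at 5.91 ± 0.14 and 5.59 ± 0.62, and Lin28b was at 0.81 and 0.74. Ezh2, the histone methyltransferase of Polycomb complexes, was the 1 gene of the 25 whose groups did not overlap, again against 7.73% of all genes, at 9.82 ± 0.09 and 10.07 ± 0.09.

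**Figure D5:**
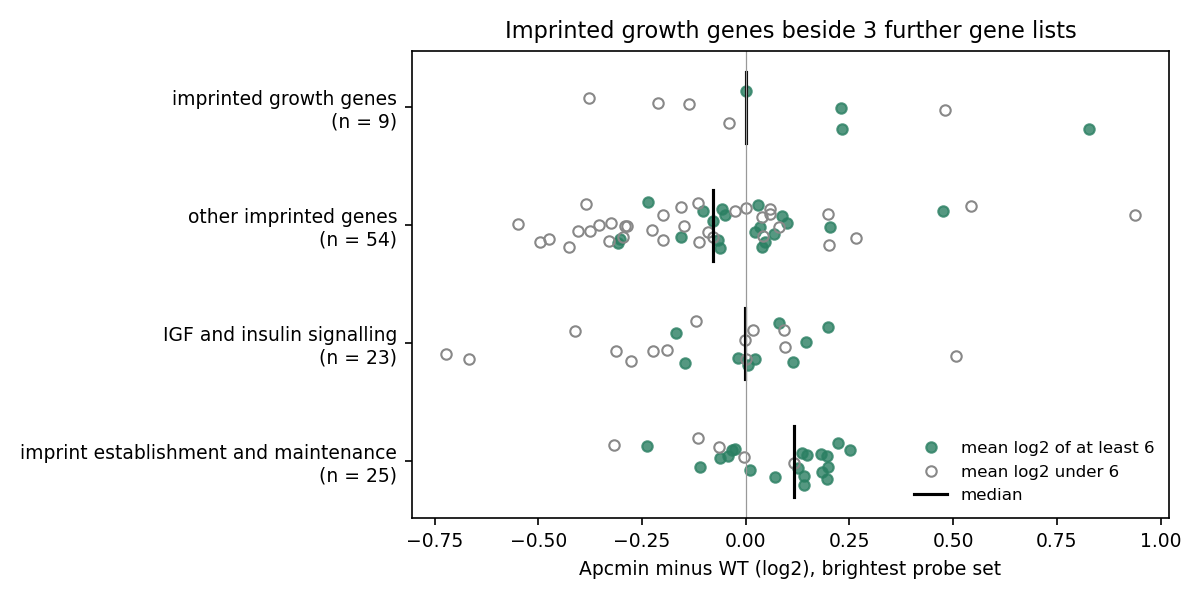
Difference Apcmin minus WT (log2) of each measured gene in the imprinted growth network and in 3 further lists. Filled green points have a mean log2 intensity of at least 6, open points a lower mean, and black bars mark the medians, which are -0.08 for other imprinted genes, -0.002 for IGF and insulin signalling and 0.12 for imprint establishment and maintenance.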

How the data were processed

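Each of the 6 columns that the authors deposited holds linear, already normalized intensity values. The submitters' processing notes name RMA, and its version is not given in the sources used here. Here log2 was taken with no pseudocount. Of 45101 probe sets, 64 controls were left out. GEO's platform annotation, which can be old, gives 34945 probe sets exactly 1 symbol, 932 more than 1, and 9160 no symbol. Of the 34945, 34741 matched a RefSeq table (GRCm38.p6) by Entrez identifier and 0 symbols changed. Apcmin was compared with WT over all 45037 probe sets with limma 3.58.1 in R 4.3.3 (lmFit, eBayes, genotype as the only term), with Benjamini-Hochberg adjustment over all of them at 0.05, and the step was tested on simulated data. Depth is not defined for arrays, and the number of arrays limits precision. Promoter windows came from RefSeq for 9 of the 10 genes.

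The members and lists were chosen with earlier results of these data known. All members were named. From each of the 3 further gene lists, named genes were those with groups that did not overlap and a mean of at least 6 in the higher group, plus a fixed set. Napb, Snrpn, Rian, Mirg, the genes near Ndn and the single markers other than those of LKS+ cells were named after their values were seen. Slc22a3 and Igf2bp2 had no probe set by the rule. Alternatives were a further quantile normalization, a floor at 4, filters at the median and at 6, a mean-variance trend, array weights, a replicate block, other probe sets and leaving out each array. A change in H19 against Igf2 had been planned and is not analysed here, since no probe set is annotated to H19 alone.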

Additional observations from a re-analysis of the deposited data

How the results depend on the processing

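With a replicate block, 0 probe sets passed and Airn stayed at 0.83 (limma, adjusted p = 0.998). The titles number the arrays of both genotypes 1 to 3, but same-numbered arrays correlated at -0.05, -0.07 and -0.23 in their deviations from the group means, so the numbers were not taken to pair them, and no WT array correlated best with its own number. The counts of called probe sets and called member genes were 0 in limma under each setting run, and with each array left out they ranged from 0 to 0. The number of probe sets with an unadjusted p under 0.05 was 1714 with all arrays, 911 with the floor, 757 and 486 with the filters, which test fewer probe sets, 1398 with the block, 2717 with array weights and 5864 without WT replicate 3. The Airn difference was positive in every setting, 0.35 with the mean of all its probe sets and 0.64 with the second brightest. Several settings could not turn this sign. The Airn groups did not overlap, so leaving out an array could not, and the floor, filters, trend and block leave its mean difference unchanged. In limma the adjusted p of Airn lay between 0.353 (without WT replicate 3) and 1. The change in Airn minus Igf2r ranged from 0.65 to 1.11 with each array left out. The signs of dim genes turned: Dlk1 was 0.015 after quantile normalization, and Meg3 and Peg3 were 0.26 and -0.022 in their second brightest probe sets. With each array left out, Dlk1 ranged from -0.32 to 0.21, Igf2 from -0.62 to 0.051, Igf2r from -0.12 to 0.075, Peg3 from -0.24 to 1.001, Plagl1 from -0.31 to 0.032 and Meg3 minus Dlk1 from -0.72 to 0.26. The cause was not tested. Meg3, Grb10 and Ndn kept their signs with each array left out. Low signal over background limits the 4 genes under 4, and the list medians without each array were added after the data were seen.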

Other observations

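Ndn lies in a cluster of imprinted genes on chromosome 7 whose other listed members gave mixed values. Peg12 was at 2.84, 4.18 and 4.30 in WT and at 5.23, 3.997 and 4.90 in Apcmin, a difference of 0.94, the highest of the 54 other imprinted genes measured (limma, adjusted p = 0.954). As for Ndn, Apcmin replicates 1 and 3 were the highest arrays, and Apcmin replicate 2 lay among the WT values. Mkrn3 was at 2.21, 2.41 and 3.72 in WT and at 2.82, 1.89 and 3.87 in Apcmin, with Apcmin replicate 3 the highest and Apcmin replicate 2 the lowest array. Magel2, at 2.34 ± 0.25 (SD, n = 3) and 2.38 ± 0.14, was dim and differed by 0.04. Others did not follow Ndn. Snrpn, also dim, was lower in Apcmin without overlap, at 3.19 ± 0.28 and 2.77 ± 0.09. Ube3a was at 9.25 ± 0.14 and 9.20 ± 0.09, and Atp10a was at 9.57 ± 0.18 and 9.61 ± 0.18. These genes were looked up after the Ndn values were seen.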
